A study of Mus musculus with 9 samples.

Results

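Mitochondrial ribosomal proteins were examined in innate lymphoid cells (ILCs) of mouse skin, as the genes whose probe sets carried 1 gene symbol beginning with Mrpl or Mrps and a number. The rule found 77 genes with 85 probe sets, out of 19752 genes on 21425 probe sets with 1 symbol and 24922 probe sets in all. Of these, 48 genes were named for the large subunit (Mrpl) and 29 for the small subunit (Mrps), and they lay on 17 chromosomes. The rule itself used gene symbols and no measured value, but it was chosen with earlier results of these data known. A gene with more than 1 probe set was represented by the brightest.

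RNA was hybridised to 9 one-colour Affymetrix arrays, 1 for each sorted sample, in 4 groups. These were Rag1-/- GFP+ cells (2 arrays), Rag1-/- GFP- cells (3 arrays), Rag1-sufficient GFP+ cells (2 arrays) and Rag1-sufficient GFP- cells (2 arrays). Every mouse was a female on the B6 background with EGFP in place of 1 Ccr10 allele (CCR10+/EGFP), so that green fluorescence stands for CCR10, a chemokine receptor of skin-homing lymphocytes. The Rag1-/- mice (Rag1-/-CCR10+/EGFP) in addition lacked Rag1, without which T and B cell receptor genes are not assembled, and the others are called Rag1-sufficient because their labels name no Rag1 allele. Ages are not given in the labels. All samples were sorted from skin as CD45.2+ cells without CD3 and without a panel of lineage markers (Gr-1, CD11b and 7-4 of myeloid cells, B220, CD5 and a Ter antigen of red cells), which holds no mast cell marker. Nothing in the labels ties replicates to different animals, so the p-values reflect sample-to-sample spread alone, and that spread may be technical.

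Mitochondria carry their own ribosomes, which translate the few proteins encoded by mitochondrial DNA, all of them core subunits of the respiratory chain and of ATP synthase. The ribosome's own proteins are encoded in the nucleus, made in the cytosol and imported. Many have a counterpart in bacterial ribosomes, and others occur only in mitochondria. T cells are known to raise mitochondrial translation when they leave the resting state and divide.

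Values were probe-set intensities as deposited, and differences were taken on the scale of log2(intensity + 1), as GFP+ minus GFP- or Rag1-/- minus Rag1-sufficient, each with the standard error of a limma model fitted to all 17445 probe sets above an intensity of about 41.6. Adjusted p-values are two-sided, corrected by Benjamini-Hochberg over those 17445 probe sets, with 0.05 as the threshold for calling a gene changed. Of the 77 genes, 73 passed that filter (46 Mrpl and 27 Mrps). The other 4 were dim on every array: Mrpl22 lay between 22.5 and 37.8, Mrpl42 between 23.3 and 36.4, Mrps27 between 23.5 and 27.8 and Mrps36 between 15.4 and 18.7. Mrps36 is named as a ribosomal protein but is now known as a subunit of the 2-oxoglutarate dehydrogenase complex. The highest mean signals among the genes were those of Mrpl34 (413), Mrpl52 (410) and Mrpl4 (368), although signals of different probe sets do not rank transcript levels.

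The arrays had been brought to a common scale, with medians between 74.1 and 77.6. The 8 ILC markers listed passed the filter on their mean over the arrays, with a summed intensity between 22118 and 25207, of which Id2 gave the largest part. Klrg1 lay below the limit on both Rag1-/- GFP+ arrays (33.6 and 28.3) and on Rag1-sufficient GFP+ replicate 2 (37.1), and the other 7 were above it on every array. Rag1 lay between 28.4 and 31.4 on all arrays, below the limit, and did not check the genotype. Ccr10 read 148 and 96.5 in Rag1-/- GFP+ cells, against 103, 125 and 109 in Rag1-/- GFP- cells, and 163 and 130 in Rag1-sufficient GFP+ cells, against 129 and 126 in Rag1-sufficient GFP- cells, so that its groups overlapped in Rag1-/- mice. Summed mast cell markers (12 genes, of which Fcer1a and Tpsab1 lay below the limit) were 5027 and 1460 on the Rag1-/- GFP+ arrays, 6283, 4958 and 4938 on the Rag1-/- GFP- arrays, 1008 and 1118 on the Rag1-sufficient GFP+ arrays, and 10750 and 10946 on the Rag1-sufficient GFP- arrays. Summed T cell markers (5 of 9 measured) did not overlap between the genotypes, with 3170 to 6585 in Rag1-/- mice and 1613 to 2605 in Rag1-sufficient mice. The 5 were Cd3d, Cd3e, Cd3g, Cd247 and Zap70, and Cd3g gave the largest part. They were measured in cells sorted without CD3, and Rag1-/- mice do not assemble T cell receptor genes. Their sums are therefore not read as numbers of T cells. In sorted bulk samples, fewer cells of a type and less RNA per cell cannot be told apart. Identical values on 2 or more arrays occurred in 28 of the 73 genes (38.4%) and in 41.7% of all probe sets kept. Mrpl20 in Rag1-/- GFP+, Mrpl19 in Rag1-/- GFP- and Mrpl39 in Rag1-sufficient GFP- cells had 1 value on all arrays of the group and so no spread there.

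Across the 9 arrays the genes moved together only in part. The median over the 73 genes, each set against its own mean over the arrays, was -0.15 and 0.03 on the Rag1-/- GFP+ arrays, -0.02, 0.03 and 0.28 on the Rag1-/- GFP- arrays, 0.16 and 0.01 on the Rag1-sufficient GFP+ arrays, and -0.16 and -0.19 on the Rag1-sufficient GFP- arrays. Both Rag1-sufficient GFP- arrays were low, and the Rag1-/- groups held arrays that differed from each other. Rag1-/- GFP- replicate 3 held the highest value of all 9 arrays for 40 of the 73 genes and the lowest for none. Rag1-/- GFP+ replicate 1 held the lowest value for 18 genes, and the Rag1-sufficient GFP- arrays for 11 and 26. The median over all probe sets stayed between -0.01 and 0.01 on every array, a value that the near-equal array medians leave little room to vary.

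**Figure D1:**
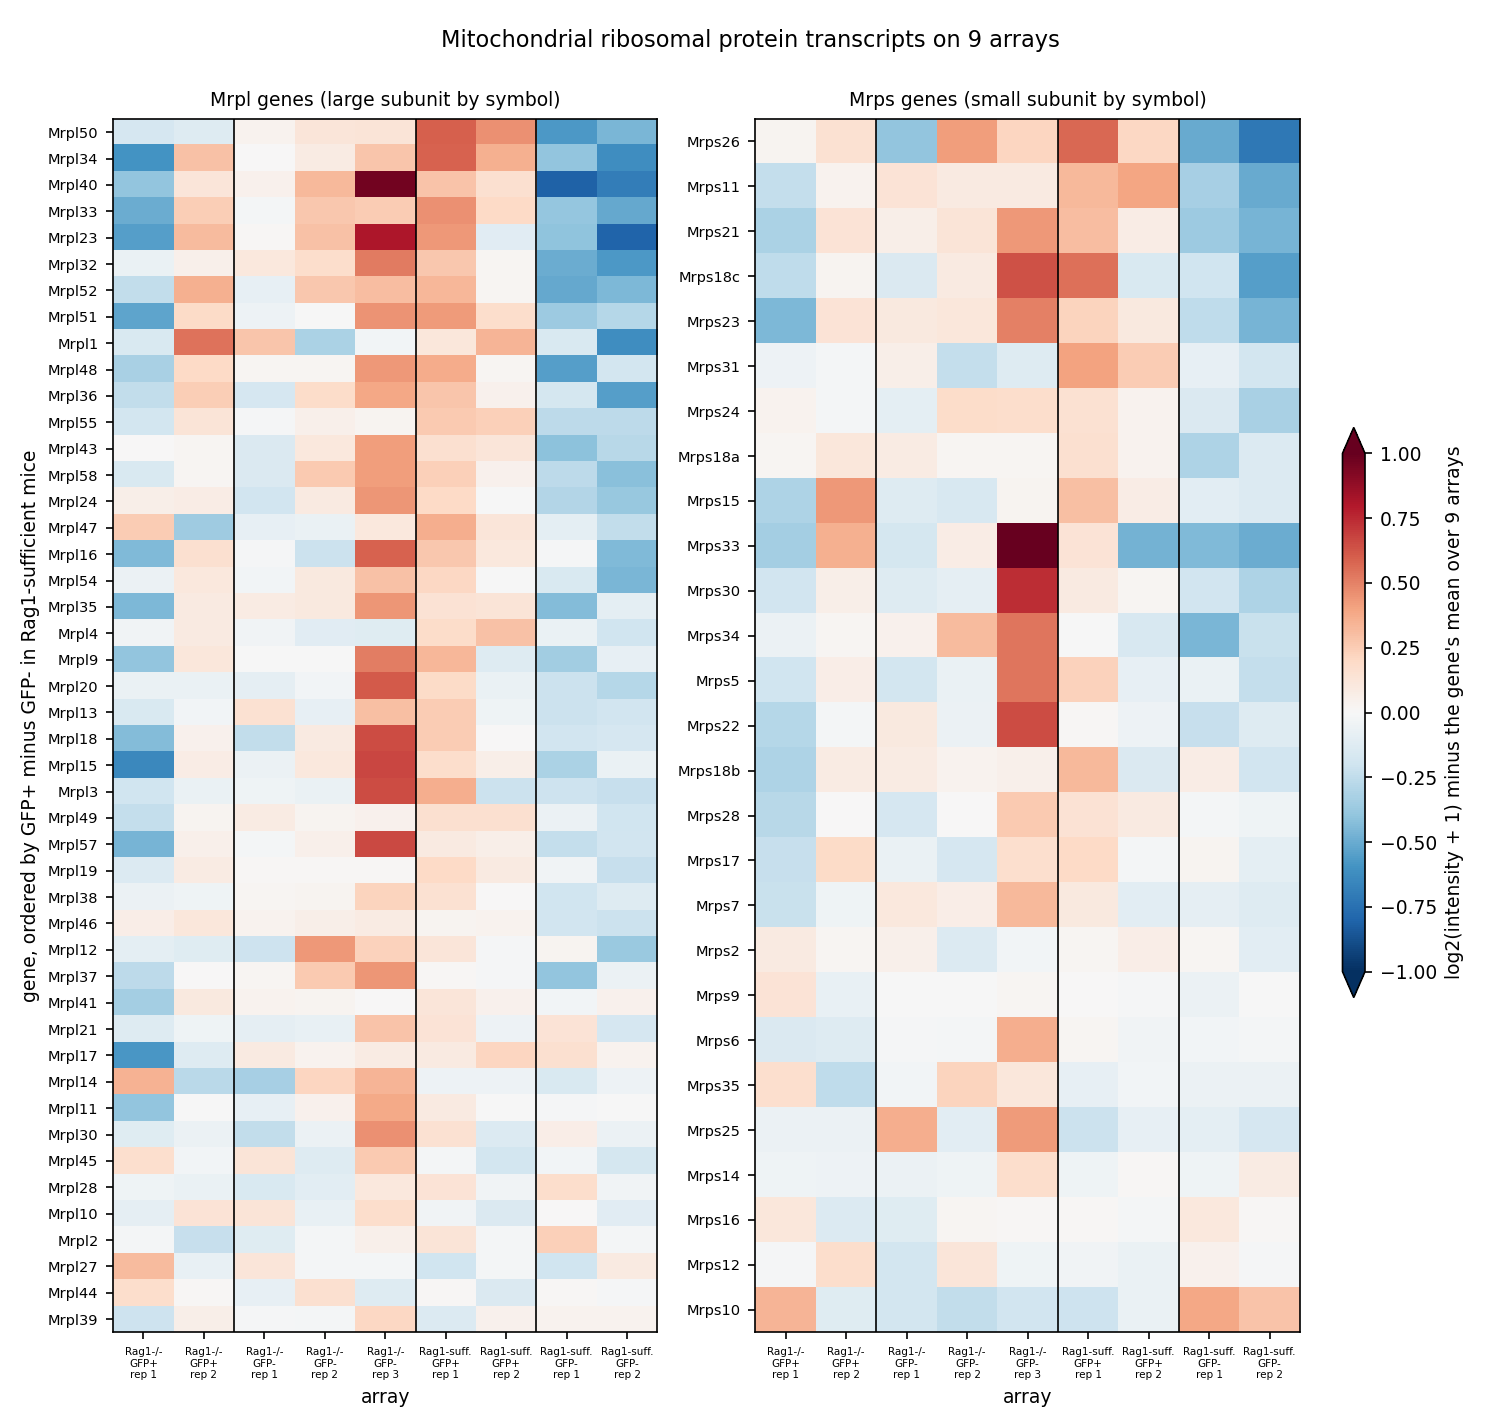
Each row is 1 of the 73 genes and each column 1 of the 9 arrays, with colour giving log2(intensity + 1) minus the gene's mean over the arrays (colours end at 1 above and below). Within each of the Mrpl and Mrps panels, rows run from the largest positive to the largest negative difference between GFP+ and GFP- cells of Rag1-sufficient mice, and the column of Rag1-/- GFP- replicate 3 is red in many rows.

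**Figure D2:**
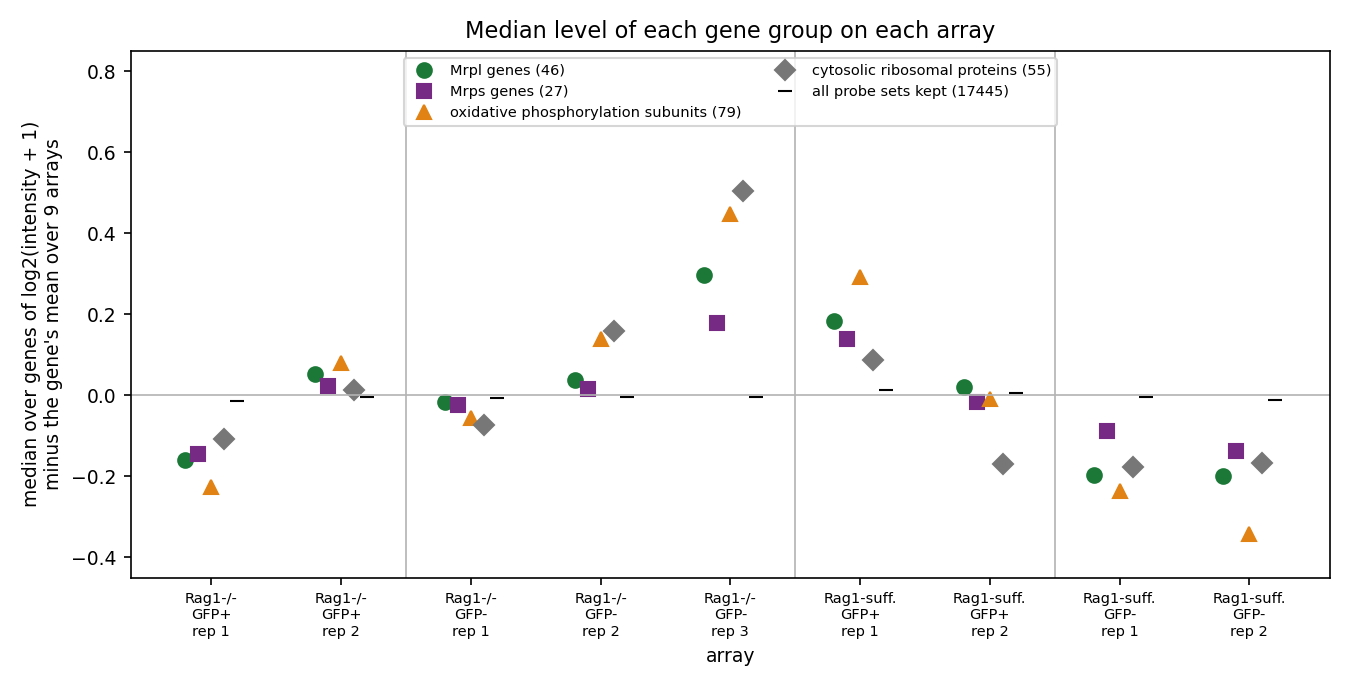
The median of each gene group on each array, as log2(intensity + 1) minus the gene's mean over 9 arrays, for 46 Mrpl genes, 27 Mrps genes, 79 oxidative phosphorylation subunits, 55 cytosolic ribosomal proteins and all 17445 probe sets. Rag1-/- GFP- replicate 3 has the highest median in each of the 4 gene groups, and all probe sets stay near 0.

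The comparison of GFP+ with GFP- cells in Rag1-sufficient mice (the Rag1-sufficient sort) addressed how ILCs with the CCR10 reporter differ from those without it where T and B cells are present. Most mitochondrial ribosomal protein genes had higher signals in GFP+ cells. Of 73 genes, 62 had a positive difference (84.9%, against 53.6% of all probe sets), with a median of 0.29 against 0.01 over all probe sets. Mrpl50 and Mrps11 passed the threshold, both higher in GFP+ cells: 2 of 73 genes (2.74%), where 0.803% of all probe sets were called in either direction and 0.332% as higher. Groups did not overlap for 44 genes that were higher in GFP+ cells (60.3%, against 29.0% of all probe sets) and for 3 that were lower (4.11%, against 21.2%). An unadjusted p under 0.05 was reached by 23 genes as higher (31.5%, against 8.16% of all probe sets) and by 1 as lower (1.37%, against 4.82%).

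Mrpl50, a large subunit protein without a bacterial counterpart, had intensities of 255 and 230 in Rag1-sufficient GFP+ cells, against 112 and 122 in Rag1-sufficient GFP- cells. Both GFP+ arrays lay above both GFP- arrays, with means of 243 ± 17.2 and 117 ± 6.77 (SD, n = 2 each). Mrpl50 rose by 1.04 ± 0.12 (adjusted p = 0.0101, limma), a 2.06-fold difference, and ranked 17th by p among all 17445 probe sets. In Rag1-/- mice the same probe set read 149 and 153 in GFP+ cells, against 171, 182 and 183 in GFP- cells. All 5 Rag1-/- arrays thus lay between the Rag1-sufficient GFP+ and GFP- arrays.

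Mrps11, a small subunit protein with a bacterial counterpart, had 235 and 247 in Rag1-sufficient GFP+ cells, against 149 and 132 in Rag1-sufficient GFP- cells. It rose by 0.78 ± 0.13 (adjusted p = 0.0443, limma), a 1.71-fold difference. The Rag1-/- arrays read 159 and 192 in GFP+ cells and 206, 200 and 200 in GFP- cells, again between the Rag1-sufficient groups. The adjusted p of Mrps11 lay close to the threshold, and it ranged from 0.0614 to 0.0988 when any 1 of the Rag1-/- GFP- arrays was left out of the shared estimate of spread.

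Of the next genes by p, none passed the threshold. Mrps26, a small subunit protein found only in mitochondria, had 145 and 112 in Rag1-sufficient GFP+ cells, against 68.1 and 58.7 in Rag1-sufficient GFP- cells, a difference of 1.0 ± 0.24 (adjusted p = 0.127). Mrpl34, the brightest gene of the set, had 597 and 507 in Rag1-sufficient GFP+ cells, against 302 and 258 in Rag1-sufficient GFP- cells, a difference of 0.98 ± 0.27 (adjusted p = 0.175). Mrpl40, a large subunit protein specific to mitochondria, had 279 and 256 in Rag1-sufficient GFP+ cells, against 131 and 142 in Rag1-sufficient GFP- cells, a difference of 0.97 ± 0.29 (adjusted p = 0.203). In these 3 genes, too, both GFP+ arrays were above both GFP- arrays. Mrpl32, whose precursor is cleaved by the mitochondrial m-AAA protease before it joins the ribosome, differed by 0.68 ± 0.17 (adjusted p = 0.138), Mrpl33 by 0.78 ± 0.23 (adjusted p = 0.201), Mrpl55 by 0.52 ± 0.13 (adjusted p = 0.147) and Mrps31 by 0.46 ± 0.11 (adjusted p = 0.126).

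Mrps10, a small subunit protein with a bacterial counterpart, ran the other way. Its intensities were 53.3 and 59.0 in Rag1-sufficient GFP+ cells, against 81.1 and 75.5 in Rag1-sufficient GFP- cells, a difference of -0.47 ± 0.14 (adjusted p = 0.199). It was the lowest difference of the 73 genes in this comparison and the only one below 0 with an unadjusted p under 0.05. The Rag1-/- arrays read 78.7 and 56.8 in GFP+ cells and 54.3, 51.9 and 53.9 in GFP- cells.

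**Figure D3:**
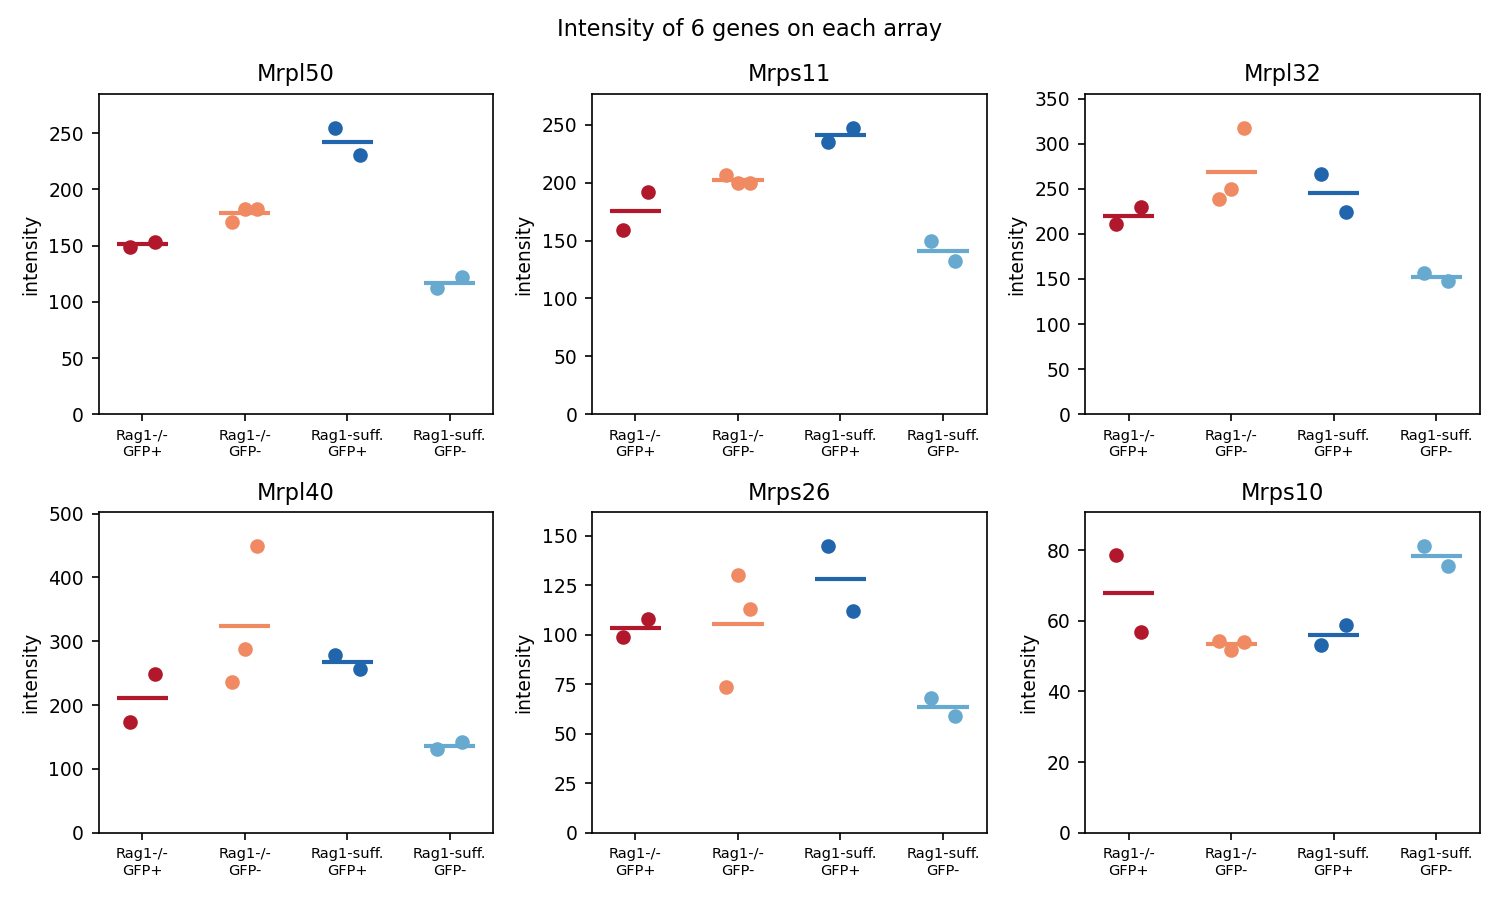
Intensity on each array (points) and group mean (lines) for 6 genes, on axes that start at 0. Mrpl50 and Mrps11 are highest in Rag1-sufficient GFP+ cells and lowest in Rag1-sufficient GFP- cells, Mrps10 is highest in Rag1-sufficient GFP- cells, and 1 Rag1-/- GFP- array reads far above the other two for Mrpl40.

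Both calls needed all 4 Rag1-sufficient arrays. Without Rag1-sufficient GFP+ replicate 1 or 2, or GFP- replicate 1 or 2, no gene of the set was called in this comparison, where between 0.0172% and 0.0344% of all probe sets were called, and the adjusted p (limma) lay between 0.0776 and 0.124 for Mrpl50 and between 0.186 and 0.436 for Mrps11. Without Rag1-/- GFP+ replicate 1 or 2, 4 genes were called (1.91% and 1.92% of all probe sets), and without Rag1-/- GFP- replicate 2 or 3, 1 gene (0.39% and 0.774% of all probe sets). With the arrays compared alone the adjusted p was 0.0526 for Mrpl50 and 0.0706 for Mrps11 (limma). Mrps11 also missed the threshold without the filter on low values (adjusted p = 0.0624) and with the replicate number as a block (adjusted p = 0.111). The median difference ranged from 0.18 without Rag1-sufficient GFP+ replicate 1 to 0.37 without GFP+ replicate 2. With array weights, which let limma count arrays of small residual spread more, 12 genes were called, 11 of them higher in GFP+ cells, where 7.39% of all probe sets were called.

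Cell markers moved with this comparison. The 8 ILC markers had a median of -0.24, and none was called. Groups did not overlap for 5 of them as lower in GFP+ cells (62.5%, against 21.2% of all probe sets) and for 1 as higher (12.5%, against 29.0%). Summed mast cell markers were 1008 and 1118 in Rag1-sufficient GFP+ cells, against 10750 and 10946 in GFP- cells, and 8 of their 10 measured genes were called lower. Cpa3 (4932 and 4965) and Mcpt4 (2489 and 2618) gave the largest part of the GFP- sums and were the 2 not called. Summed cell cycle genes (14 of 15 measured) were 8205 and 8346 in GFP+ cells, against 5583 and 5134 in GFP- cells, with 3 called higher (Nusap1, Ube2c and Plk1). The largest part of these sums came from Pcna (4926 and 4416 in GFP+ cells, against 3496 and 3242), which was not called. Keratinocyte markers (8 of 10 measured) were lower in 8 of 8, with a median of -0.65 and none called, and sums over the 10 listed were 2467 and 2004 in GFP+ cells, against 2508 and 3717 in GFP- cells. All 5 measured dendritic cell markers were lower without overlap, with sums over the 6 listed of 386 and 365 in GFP+ cells, against 486 and 485 in GFP- cells, and Xcr1 was called (adjusted p = 0.00843, limma). The part of any of these in the ribosomal protein differences was not tested.

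Some promoter features, which the rule had not used, were more frequent among these genes than among all promoters. Windows from 250 bases before to 50 bases after the transcription start were found in RefSeq (GRCm38.p6) for 68 of the 77 genes, 74 windows in all, and were searched on both strands. The letters CCGGAAG, the core that ETS factors such as GABPA bind, were in 33.8% of these windows, against 8.86% of all 32851 promoter windows. AAGATGGCG, bound by YY1, was in 10.8% against 1.4%, and the NRF1 motif, GCGCA followed directly by its reverse complement, in 4.05% against 0.971%. At least 1 of the 3 motifs was found for 34 of the 68 genes (50.0%, against 12.1% of all genes with windows), and the others held none. The windows had a median GC content of 58.5%, against 52.67% over all promoters (the part of GC content in these shares was not tested). A match describes these letters only, and whether any factor binds was not tested.

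Promoter windows of Mrpl50 and Mrps11, the genes called in the Rag1-sufficient sort, of Mrps26 as an example with an ETS match and of Mrps10 as the gene of opposite direction are shown 5′ to 3′ on the gene's strand, with motif letters in capitals. Mrpl50 (chr4:49521034-49521333, minus strand) and Mrps10 (chr17:47368947-47369246, plus strand) hold none of the 3 motifs. Mrps11 (chr7:78782881-78783180, plus strand) holds the reverse complement of the YY1 letters from position -108, counted from the transcription start, and Mrps26 (chr2:130563507-130563806, plus strand) the reverse complement of the ETS letters from position -14.
Mrpl50: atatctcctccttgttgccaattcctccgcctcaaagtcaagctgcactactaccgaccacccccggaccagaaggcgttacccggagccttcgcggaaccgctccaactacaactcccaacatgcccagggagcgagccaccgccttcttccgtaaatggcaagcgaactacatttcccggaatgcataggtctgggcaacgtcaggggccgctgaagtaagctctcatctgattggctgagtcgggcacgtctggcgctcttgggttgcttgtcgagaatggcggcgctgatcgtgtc
Mrps11: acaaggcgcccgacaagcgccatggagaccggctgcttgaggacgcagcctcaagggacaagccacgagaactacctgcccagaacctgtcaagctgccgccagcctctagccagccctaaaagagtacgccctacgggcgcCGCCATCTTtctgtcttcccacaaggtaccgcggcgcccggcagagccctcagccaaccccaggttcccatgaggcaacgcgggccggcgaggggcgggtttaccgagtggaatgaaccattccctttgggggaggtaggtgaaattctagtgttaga
Mrps26: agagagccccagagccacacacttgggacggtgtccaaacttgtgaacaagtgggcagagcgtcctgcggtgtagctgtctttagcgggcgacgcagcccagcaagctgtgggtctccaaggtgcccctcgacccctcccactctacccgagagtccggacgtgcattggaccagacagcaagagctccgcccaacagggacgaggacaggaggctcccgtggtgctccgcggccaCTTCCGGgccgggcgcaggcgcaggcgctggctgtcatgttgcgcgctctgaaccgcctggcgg
Mrps10: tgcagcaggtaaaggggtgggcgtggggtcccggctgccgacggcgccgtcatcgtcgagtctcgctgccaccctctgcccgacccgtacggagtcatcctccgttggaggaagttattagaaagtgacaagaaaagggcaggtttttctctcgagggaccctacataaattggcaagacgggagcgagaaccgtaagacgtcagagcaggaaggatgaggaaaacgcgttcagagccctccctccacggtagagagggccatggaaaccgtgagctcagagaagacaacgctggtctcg

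In Rag1-/- mice the same comparison (the Rag1-/- sort) gave smaller differences, mostly of the opposite sign. Of 73 genes, 58 were lower in GFP+ cells (79.5%, against 51.9% of all probe sets), with a median of -0.16 against -0.01. No gene was called (0 of 73, where 0% of all probe sets were called), and an unadjusted p under 0.05 was reached by 1 gene as higher (1.37%, against 1.5% of all probe sets) and 2 as lower (2.74%, against 4.79%) in limma. Groups did not overlap for 9 genes that were lower (12.3%, against 10.1% of all probe sets), a share near the background. They did not overlap for 1 gene that was higher (1.37%, against 5.27%), a share below it.

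Mrpl17, a large subunit protein with a bacterial counterpart, had the smallest p, with 93.9 and 129 in Rag1-/- GFP+ cells, against 150, 145 and 150 in Rag1-/- GFP- cells, a difference of -0.43 ± 0.14 (adjusted p = 0.688, limma). Mrpl50 differed by -0.24 ± 0.11, Mrps7 by -0.30 ± 0.13, Mrpl37 by -0.37 ± 0.17 and Mrps34 by -0.32 ± 0.15, each with adjusted p = 0.688, and their groups did not overlap. Mrpl40 had 174 and 249 in GFP+ cells, against 236, 287 and 449 in GFP- cells, a difference of -0.58 ± 0.26 with overlapping groups. The groups overlapped as well in Mrpl15 (-0.52 ± 0.25), Mrpl11 (-0.31 ± 0.15) and Mrpl35 (-0.39 ± 0.19). Mrps10 was the exception among the genes of small p, higher by 0.32 ± 0.13 in GFP+ cells (adjusted p = 0.688).

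The size of this median varied with single arrays, but it stayed below 0 when any 1 array was left out. The median was -0.27 when Rag1-/- GFP+ replicate 2 was left out and -0.07 when GFP+ replicate 1 was. Leaving out GFP- replicate 1 gave -0.23, and leaving out GFP- replicate 3 gave -0.05. With GFP+ replicate 1 and GFP- replicate 3 both left out it was 0.05, and 44 of 73 genes were then higher in GFP+ cells. These 2 arrays were picked after the data were seen. They had the lower median of the GFP+ arrays and the highest of the GFP- arrays for these genes. The choice itself therefore moves GFP+ minus GFP- upward, and no conclusion is drawn from the change of sign. Marker sums differed within the groups as well. Summed mast cell markers, in replicate order, were 5027 and 1460 on the GFP+ arrays, and 6283, 4958 and 4938 on the GFP- arrays. Summed T cell markers were 3170 and 6282 on the GFP+ arrays, and 4220, 4365 and 6585 on the GFP- arrays. With 2 GFP+ arrays, these sums do not show which of them is the unusual one. Across probe sets, GFP+ replicates 1 and 2 had Spearman correlations of 0.984 and 0.993 with Rag1-/- GFP- replicate 1. With Rag1-/- GFP- replicate 3 they had 0.978 and 0.987. Replicate 1 had the lower value with every array outside its group except Rag1-sufficient GFP- replicate 1 (0.987 against 0.986). The part of the markers was not tested.

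The difference between the genotypes in the effect of sorting was tested directly, as GFP+ minus GFP- in Rag1-/- mice minus the same in Rag1-sufficient mice. It was negative for 65 of 73 genes (89%, against 51.8% of all probe sets), with a median of -0.45 against -0.01. No gene was called (0 of 73, where 0% of all probe sets were called), while 24 genes had an unadjusted p under 0.05 as negative (32.9%, against 9.85% of all probe sets) and 1 as positive (1.37%, against 3.78%). Mrpl50 came nearest, with -1.29 ± 0.16 (adjusted p = 0.0723, limma), the 5th smallest p of all probe sets. Mrps11 followed with -0.98 ± 0.18 (adjusted p = 0.143), Mrpl40 with -1.55 ± 0.39 (adjusted p = 0.250), Mrpl32 with -0.95 ± 0.23 (adjusted p = 0.237) and Mrps10, of opposite sign, with 0.79 ± 0.19 (adjusted p = 0.229). Mrpl33 (-1.07 ± 0.31), Mrpl34 (-1.25 ± 0.37), Mrps21 (-0.90 ± 0.27), Mrpl55 (-0.56 ± 0.18) and Mrps23 (-0.91 ± 0.30), all negative, completed the 10 smallest p. Without Rag1-/- GFP+ replicate 2, Mrpl50, Mrps11, Mrps10, Mrpl33 and Mrpl34 were called, where 2.87% of all probe sets were called. Without Rag1-/- GFP+ replicate 1 and GFP- replicate 3 the median was -0.25. Cell markers and related genes moved with this difference too: 14 of 14 cell cycle genes were negative (median -0.73, 10 with an unadjusted p under 0.05), 10 of 10 mast cell markers were positive (median 1.60, 8 with an unadjusted p under 0.05) and 74 of 79 oxidative phosphorylation subunits were negative (median -0.64), with none called. Their part was not tested. The 2 sorting comparisons share no array. Across the 73 genes their differences had a Pearson's r of -0.36 and a Spearman's rho of -0.31, against an r of -0.10 over all probe sets, and 52 genes were higher in Rag1-sufficient and lower in Rag1-/- GFP+ cells. These are descriptions over genes that share arrays, depth and labelling, and genes are not replicates.

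**Figure D4:**
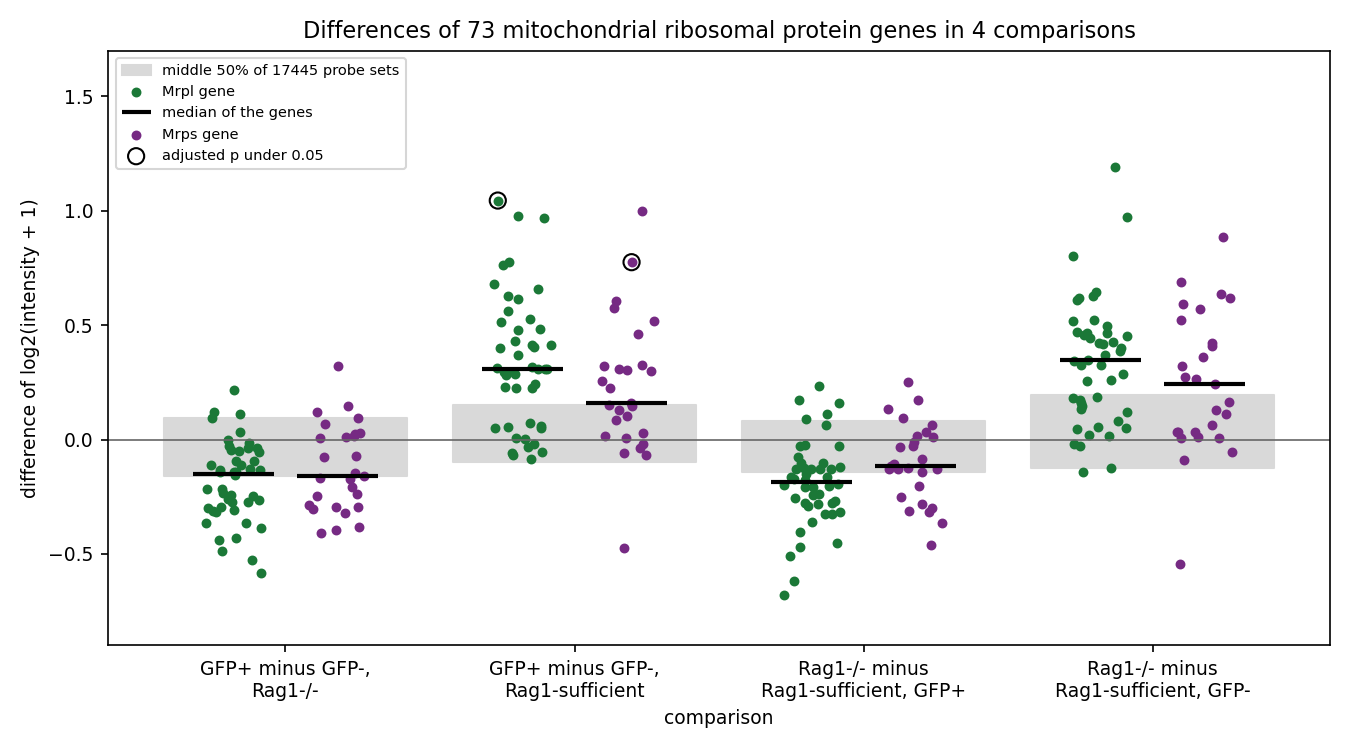
Differences of log2(intensity + 1) for 46 Mrpl and 27 Mrps genes (points) in 4 comparisons, with the median of each group (bars) and the middle 50% of all 17445 probe sets (grey). Circles mark Mrpl50 and Mrps11, the genes past the threshold, and the medians lie below 0 in the comparison of Rag1-/- sorted fractions and in that of GFP+ cells.

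Rag1-/- and Rag1-sufficient mice were next compared within GFP+ cells (the GFP+ comparison) and within GFP- cells (the GFP- comparison). These comparisons reuse the arrays of the sorting comparisons, so their values are given side by side and not as further support. Among GFP+ cells, 59 of 73 genes were lower in Rag1-/- mice (80.8%, against 55.8% of all probe sets), with a median of -0.14 against -0.02. No gene was called (0 of 73, where 0.246% of all probe sets were called), and an unadjusted p under 0.05 was reached by 4 as lower (5.48%, against 4.57% of all probe sets) and 0 as higher (against 2.25%) in limma. Groups did not overlap for 20 genes that were lower (27.4%, against 18.5% of all probe sets) and 3 that were higher (4.11%, against 11.0%).

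In GFP+ cells Mrpl50 had 149 and 153 in Rag1-/- mice, against 255 and 230 in Rag1-sufficient mice, a difference of -0.68 ± 0.12 (adjusted p = 0.0800, limma). Mrps11 differed by -0.46 ± 0.13 (adjusted p = 0.440) and Mrpl17 by -0.51 ± 0.15 (adjusted p = 0.450). Mrps31 read 74.7 and 76.2 in Rag1-/- mice, against 102 and 92.6 in Rag1-sufficient mice, a difference of -0.36 ± 0.11 (adjusted p = 0.481). In each of these 4 genes both Rag1-/- arrays lay below both Rag1-sufficient arrays, as they did in Mrpl34 (-0.62 ± 0.27), Mrpl55 (-0.28 ± 0.13) and Mrpl49 (-0.27 ± 0.14). In Mrpl33 (-0.45 ± 0.23) and Mrpl51 (-0.47 ± 0.26) the groups overlapped, as they did in Mrps10, which was higher in Rag1-/- cells (0.25 ± 0.14). Leaving out Rag1-/- GFP+ replicate 2 or 1 moved these values to -1.07 and -0.18 for Mrpl34, -0.44 and -0.12 for Mrpl55, -0.41 and -0.14 for Mrpl49, -0.82 and -0.08 for Mrpl33, -0.83 and -0.11 for Mrpl51 and 0.48 and 0.02 for Mrps10. The median was -0.05 without Rag1-/- GFP+ replicate 1, -0.26 without Rag1-/- GFP+ replicate 2, -0.05 without Rag1-sufficient GFP+ replicate 1 and -0.24 without Rag1-sufficient GFP+ replicate 2. Summed cell cycle genes were 4784 and 6535 in Rag1-/- GFP+ cells, against 8205 and 8346 in Rag1-sufficient GFP+ cells, with Nusap1 called lower, and the T cell marker Cd3e was called higher. Mast cell markers were higher in 10 of 10, with a median of 0.42, and keratinocyte markers lower in 7 of 8, with a median of -0.51, none of them called. The mast cell difference came mostly from 1 array, and 2 of the 10 markers were higher without overlap. Summed mast cell markers were 5027 and 1460 in Rag1-/- GFP+ cells, against 1008 and 1118 in Rag1-sufficient GFP+ cells. Cpa3 read 2085 and 19.9, against 20.3 and 21.5. The part of these was not tested.

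Among GFP- cells the genes ran higher in Rag1-/- mice. A positive difference was found for 66 of 73 genes (90.4%, against 50.1% of all probe sets), with a median of 0.32 against 0.00. No gene was called (0 of 73, where 0.143% of all probe sets were called), while an unadjusted p under 0.05 was reached by 26 as higher (35.6%, against 10% of all probe sets) and 1 as lower (1.37%, against 7.27%) in limma. Groups did not overlap for 42 genes that were higher (57.5%, against 23.0% of all probe sets) and 1 that was lower (1.37%, against 17.6%).

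Mrpl50 had 171, 182 and 183 in Rag1-/- GFP- cells, against 112 and 122 in Rag1-sufficient GFP- cells, a difference of 0.61 ± 0.11 (adjusted p = 0.0739, limma). Mrpl32 had 238, 249 and 318 in Rag1-/- GFP- cells, against 156 and 148 in Rag1-sufficient GFP- cells, a difference of 0.80 ± 0.16 (adjusted p = 0.0943). Mrpl40 had 236, 287 and 449 in Rag1-/- GFP- cells, against 131 and 142 in Rag1-sufficient GFP- cells, and its difference of 1.19 ± 0.26 (adjusted p = 0.124) was the largest of the 73 genes. All 3 Rag1-/- arrays lay above both Rag1-sufficient arrays in these genes, and for Mrpl32 and Mrpl40 replicate 3 was the highest.

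Mrps34, which is needed for a stable small subunit in mouse, had 138, 167 and 195 in Rag1-/- GFP- cells, against 97.4 and 115 in Rag1-sufficient GFP- cells, a difference of 0.64 ± 0.15 (adjusted p = 0.145). Mrps11 differed by 0.52 ± 0.12 (adjusted p = 0.142), Mrps21 by 0.62 ± 0.18 (adjusted p = 0.186) and Mrps26 by 0.69 ± 0.22 (adjusted p = 0.206). Mrpl23, whose bacterial counterpart lines the exit of the peptide tunnel, differed by 0.97 ± 0.32 and Mrpl52 by 0.65 ± 0.22 (adjusted p = 0.213 for both). Mrps10 again ran the other way, with 54.3, 51.9 and 53.9 in Rag1-/- GFP- cells, against 81.1 and 75.5 in Rag1-sufficient GFP- cells, a difference of -0.54 ± 0.13 (adjusted p = 0.141), and it was the 1 gene whose groups did not overlap as lower.

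The size of this median depended on 1 array. Without Rag1-/- GFP- replicate 3 the median was 0.19 and 59 of 73 genes were higher. Array weights, which gave that array 0.57 and Rag1-/- GFP- replicate 2 a weight of 1.76, called 11 genes, where 6.70% of all probe sets were called. Without Rag1-/- GFP- replicate 1, 1 gene was called as higher (1.37%, where 0.797% of all probe sets were called), and without Rag1-/- GFP+ replicate 1 or 2, 1 gene was called as lower (where 0.447% and 0.436% were called). Summed mast cell markers were 6283, 4958 and 4938 in Rag1-/- GFP- cells, against 10750 and 10946 in Rag1-sufficient GFP- cells, and all 5 measured T cell markers had an unadjusted p under 0.05 as higher in Rag1-/- cells. Keratinocyte markers were lower in 7 of 8 (median -0.83, 5 with an unadjusted p under 0.05), with sums of 1785, 2490 and 1992 in Rag1-/- GFP- cells, against 2508 and 3717 in Rag1-sufficient GFP- cells. Fibroblast markers were lower in 6 of 6 and endothelial markers in 4 of 4, and the dendritic cell marker Xcr1 was called lower (adjusted p = 0.0125, limma). Their part in the ribosomal protein differences was not tested.

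**Figure D5:**
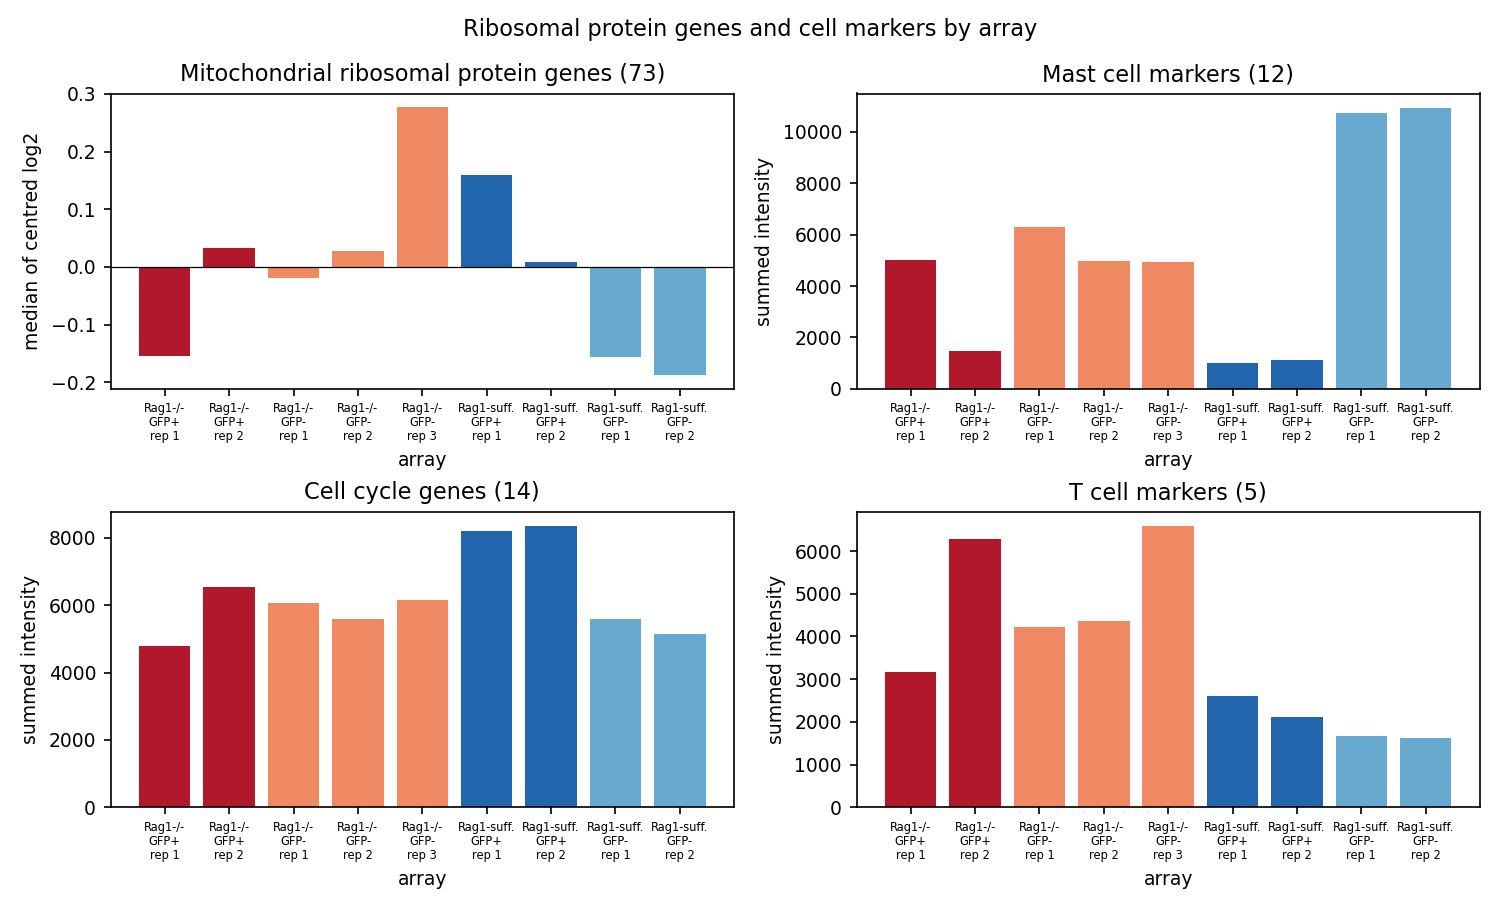
The median of the 73 genes on each array (top left, log2 scale, relative to each gene's mean) and the summed intensity of mast cell, cell cycle and T cell markers on the same arrays. The 2 Rag1-sufficient GFP- arrays are highest for mast cell markers and lowest for the ribosomal protein genes (-0.156 and -0.188). Rag1-/- GFP+ replicate 1 is almost as low for these genes (-0.154), with a mast cell sum of 5027. The 2 Rag1-sufficient GFP+ arrays are highest for cell cycle genes.

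Large and small subunit genes had medians of the same sign in each of the 4 comparisons. In GFP+ against GFP- cells of Rag1-sufficient mice the median was 0.31 for Mrpl genes (40 of 46 higher) and 0.16 for Mrps genes (22 of 27 higher). In Rag1-/- mice the medians were -0.15 (41 of 46 lower) and -0.16 (17 of 27 lower). For Rag1-/- against Rag1-sufficient mice they were -0.19 and -0.12 in GFP+ cells, and 0.35 and 0.24 in GFP- cells. Whether the subunits differ from each other was not tested. Mrps30 and Mrps18a carry small subunit names but sit in the large subunit, and in GFP- cells they differed by 0.42 ± 0.23 and 0.26 ± 0.10 between Rag1-/- and Rag1-sufficient mice (adjusted p = 0.376 and 0.245).

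Genes that occur only in mitochondria (25 kept) and genes with a bacterial counterpart (46 kept) had medians of 0.29 and 0.29 in the Rag1-sufficient sort, and of 0.45 and 0.21 for Rag1-/- against Rag1-sufficient GFP- cells. The central protuberance, the crown of the large subunit that faces the small one, was represented by 7 genes. They had a median of 0.31 in the Rag1-sufficient sort, with 6 of 7 higher, and of 0.34 in the GFP- comparison, with 7 of 7 higher. The stalk proteins were represented by 3 genes. Their medians were 0.05 in the Rag1-sufficient sort, -0.26 in the Rag1-/- sort and 0.13 in the GFP- comparison. Among them Mrpl12, which is known to bind the mitochondrial RNA polymerase, differed by 0.23 ± 0.22 in the Rag1-sufficient sort (adjusted p = 0.775). In the GFP- comparison Mrpl12 differed by 0.32 ± 0.20 (adjusted p = 0.409), near the median of 0.32 over the 73 genes. Mrpl58, a peptidyl-tRNA hydrolase that frees stalled ribosomes, differed by 0.48 ± 0.19 (adjusted p = 0.332) and 0.52 ± 0.17 (adjusted p = 0.215). Mrps12, of the decoding centre, differed by -0.07 ± 0.11 and -0.05 ± 0.10 in the same comparisons.

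A second probe set existed for 8 genes, and both were above the filter for 6 of them. Each of the 6 pairs had the same sign in every comparison. The sets of Mrpl23 share accessions in the platform annotation and read alike, with 0.76 and 0.81 in the Rag1-sufficient sort, so they are no independent measurement. Those of Mrpl51 differed in size, with 0.63 for the brighter and 0.13 for the dimmer set.

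Proteins of the mitochondrial ribosome with other names had differences of the same order, and none passed the threshold (2 had an unadjusted p under 0.05 in the Rag1-sufficient sort). Of 5 measured, 4 were higher in GFP+ cells of Rag1-sufficient mice and 5 were lower in GFP+ cells of Rag1-/- mice, with medians of 0.30 and -0.15. Gadd45gip1, of the large subunit, differed by 0.59 ± 0.20 in the Rag1-sufficient sort (adjusted p = 0.259), and Dap3, a GTP-binding small subunit protein, by 0.30 ± 0.19 (adjusted p = 0.604). Chchd1, of the small subunit, differed by 0.53 ± 0.21 there (adjusted p = 0.338) and by 0.55 ± 0.20 between Rag1-/- and Rag1-sufficient GFP- cells (adjusted p = 0.228).

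No factor that serves the ribosome was called (limma), and of 10 translation factors 1 had an unadjusted p under 0.05 in the Rag1-sufficient sort (10%, against 8.16% of all probe sets as higher) and 2 in the GFP- comparison (20%, against 10% of all probe sets). All 10 were higher in Rag1-/- than in Rag1-sufficient GFP- cells, with a median of 0.18, and 7 of 10 were higher in the Rag1-sufficient sort, with a median of 0.06. Mrrf, the recycling factor, differed by 0.49 ± 0.17 (adjusted p = 0.226) in the first and 0.56 ± 0.19 (adjusted p = 0.259) in the second. Tufm, the elongation factor that carries aminoacyl-tRNA, differed by 0.40 ± 0.15 (adjusted p = 0.246) and 0.19 ± 0.17 (adjusted p = 0.753). Assembly factors (21 genes) and mitochondrial tRNA synthetases (14 genes) had medians of 0.07 and -0.02 in the Rag1-sufficient sort, and of 0.09 and -0.02 in the GFP- comparison. Rbfa, an assembly factor of the small subunit, had the lowest p of the assembly factors in the Rag1-/- sort, with -0.79 ± 0.22 (adjusted p = 0.688).

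Transcription of mitochondrial DNA and its regulators gave mixed values. Of 9 genes of mitochondrial transcription and RNA processing, 7 were higher in the Rag1-sufficient sort, with a median of 0.34. Lrpprc, which stabilises mitochondrial mRNA, differed by -0.21 ± 0.10 there (adjusted p = 0.427), and Polrmt, the mitochondrial RNA polymerase, by 0.04 ± 0.11, or -0.02 after quantile normalization. Tfam, which packs mitochondrial DNA, was below the filter. Hsd17b10, a subunit of mitochondrial RNase P, differed by -0.73 ± 0.29 between Rag1-/- and Rag1-sufficient GFP+ cells (adjusted p = 0.671). Among 8 regulators of mitochondrial biogenesis, Gabpa, the DNA-binding subunit of an ETS factor, differed by 0.46 ± 0.16 in the Rag1-sufficient sort (adjusted p = 0.277). Myc, a growth regulator, differed by -0.81 ± 0.16 between Rag1-/- and Rag1-sufficient GFP- cells (adjusted p = 0.0943).

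Related gene groups had medians away from 0 as well. Oxidative phosphorylation subunits, which are encoded in the nucleus and join those made by the mitochondrial ribosome, had a median of 0.44 in the Rag1-sufficient sort (70 of 79 higher) and of -0.24 in the Rag1-/- sort. Their medians for Rag1-/- against Rag1-sufficient mice were -0.17 in GFP+ and 0.47 in GFP- cells. Cytosolic ribosomal proteins (55 genes) had medians of 0.15 and -0.21 in the 2 sorts, of -0.01 in GFP+ cells and of 0.38 in GFP- cells. No gene of either group was called in these 4 comparisons (limma). An unadjusted p under 0.05 as higher was reached by 28 oxidative phosphorylation and 4 cytosolic ribosomal genes in the Rag1-sufficient sort (35.4% and 7.27%, against 8.16% of all probe sets), and by 35 and 17 in the GFP- comparison (44.3% and 30.9%, against 10% of all probe sets). Both groups had their highest array median on Rag1-/- GFP- replicate 3 (0.45 and 0.50), as the mitochondrial ribosomal proteins had.

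Beyond the motifs of the promoter windows, a start of another gene on the opposite strand within 1000 bases lay upstream of 26 of the 68 genes (38.2%), against 12.3% of 27025 genes with windows. Mrps11 and Mrpl46, both in the set, start 42 bases apart, and Mrpl46 differed by 0.23 ± 0.10 in the Rag1-sufficient sort (adjusted p = 0.355) where Mrps11 rose by 0.78. Zfp189 starts 93 bases from Mrpl50 and differed by 0.40 ± 0.18 (adjusted p = 0.417), and Hira, a histone chaperone, starts 113 bases from Mrpl40 and differed by -0.11 ± 0.11 (adjusted p = 0.801). Over 21 pairs of a gene of the set and a measured partner outside it, the partners had a median of 0.04 and the set's genes of 0.23 in the Rag1-sufficient sort. For Rag1-/- against Rag1-sufficient GFP- cells the partners had a median of -0.01 and the set's genes of 0.24, and no partner was called (limma).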

How the data were processed

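The deposited table holds 1 linear intensity per probe set and array, normalized by the authors. MAS5 is named, without version or role, per the submitters' processing notes, and the normalization and build are not given in the sources used here. Each array is 1 sample, grouped by its labels, and the number of arrays limits the precision. Symbols came from the platform annotation. Intensities were taken as log2(intensity + 1), the dimmest 30% of probe sets were left out (limit 41.6), and limma 3.58.1 in R 4.3.3 fitted 4 group means to all 9 arrays, with prior variance following intensity (residual degrees of freedom 5, prior 3.56), with two-sided tests and Benjamini-Hochberg adjustment. Promoters and figures were handled in Python 3.11.15. The fit was tested on simulated data. With 2 arrays against 2 an exact permutation test cannot go below 0.333, so it was not used.

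The members and lists were chosen with earlier results of these data known. Genes were named per comparison as those past the threshold, filled to 10 by unadjusted p, plus the 3 brightest and 3 dimmest and a fixed panel, and in other lists as those past the threshold or of smallest p. Promoter windows came from RefSeq (GRCm38.p6). Alternatives were another pseudocount (16), no filter or a 50% filter, quantile normalization, no trend, array weights, a replicate block, probe set means, fits to the compared arrays alone and leaving out each array. Leaving out 2 arrays together was added after the data were seen.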

Additional observations from a re-analysis of the deposited data

How the results depend on the processing

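With 2 or 3 arrays a group, single arrays set many of these values, and calls near the threshold moved with how the spread was estimated. Of the values of single genes under the alternatives, 1744 kept their direction and side of the threshold, 37 passed it newly, 15 no longer passed it and 30 changed sign. Quantile normalization moved the median over all probe sets by at most 0.026.

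The 2 genes called in the Rag1-sufficient sort became 1 without the filter on low values (0.486% of all probe sets called), 1 with the replicate block (0.418%), 0 with the compared arrays alone (0.625%), 12 with array weights (7.39%) and 7 without Rag1-/- GFP+ replicate 1 and Rag1-/- GFP- replicate 3 (3.04%); leaving out 1 array gave 0 to 4 (0.0172% to 1.92%). Mrpl50 had an adjusted p of 0.0526 with the compared arrays alone. Array weights called 11 genes between Rag1-/- and Rag1-sufficient GFP- cells (6.70% of all probe sets). They called 1 gene for the difference between genotypes in the effect of sorting (0.178% of all probe sets). Leaving out 1 array gave 0 to 1 in the GFP- comparison (0.00573% to 0.797% of all probe sets). For the difference between genotypes it gave 0 to 5 (0% to 2.87% of all probe sets). No gene was called in the other comparisons under these alternatives. Why the calls moved was not tested. The fits that left arrays out also held fewer arrays, and the part of that was not tested either.

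The median of the GFP- comparison was 0.19 to 0.32 when 1 array was left out, and 0.19 without Rag1-/- GFP- replicate 3. The replicate block and the fit without the 2 arrays named above also gave 0.19. Each of them takes that same array out of this comparison, so they are not separate checks. In the Rag1-/- sort the median was 0.047 without those 2 arrays and -0.27 to -0.05 when 1 was left out. For the difference between genotypes it was -0.25 without them and -0.55 to -0.33 when 1 was left out. The replicate numbers are shared by the groups, but the labels do not say that they pair samples, so they were not taken as pairs. Deviations of same-numbered arrays had correlations from -0.51 to 0.24. Between GFP+ and GFP- arrays of the same genotype these were 0.08 in Rag1-sufficient mice and 0.03 and -0.24 in Rag1-/- mice. The deviations of 2 arrays in a group mirror each other, so these values cannot exclude that sorted fractions shared animals. Under the block Mrps30 was 0.043 in the Rag1-/- sort, the same value as without Rag1-/- GFP- replicate 3.

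After quantile normalization Polrmt was -0.021 in the Rag1-sufficient sort, 0.075 in the Rag1-/- sort, 0.0018 in the GFP+ and -0.095 in the GFP- comparison, and 0.097 for the difference between genotypes, and in the GFP- comparison Lrpprc was 0.0071 and Mrps12 0.018 (0.0045 with array weights). When 1 array, or the 2 arrays together, were left out, the following ranges spanned 0. In the Rag1-/- sort Mrpl15 ran from -0.88 to 0.047, Mrpl11 from -0.50 to 0.014, Mrps30 from -0.39 to 0.17, Mrps18a from -0.023 to 0.070 and Polrmt from -0.069 to 0.0093. In the GFP+ comparison Mrps30 ran from -0.24 to 0.0066, Mrps34 from -0.017 to 0.14, Mrps18a from -0.096 to 0.028, Tufm from -0.18 to 0.037 and Lrpprc from -0.0086 to 0.057. In the GFP- comparison Mrps12 ran from -0.13 to 0.020, Polrmt from -0.0067 to 0.039 and Lrpprc from -0.085 to 0.018. The cause was not tested.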
